A study of Mus musculus with 9 samples.

Results

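The 10 genes described here belong to the unfolded protein response (UPR) and were followed in mouse frontal cortex, out of the 43629 gene rows in the deposited counts. They were chosen by name as sensors and targets of endoplasmic reticulum (ER) stress (Hspa5, Xbp1, Ern1, Atf4, Atf6, Ddit3, Dnajb9, Herpud1, Calr and Pdia4), and all 10 passed the filter on low counts. The libraries came from 4 Neat1-/- mice, aged 2, 3, 3 and 4 months, and 5 wild-type (WT) mice, aged 2, 2, 3, 4 and 4 months, all female and of the C57BL/6 strain. In the Neat1-/- allele, lacZ with polyadenylation signals sits just after the start site of the lncRNA Neat1, in every cell of the animal. RNA was sequenced after depletion of ribosomal RNA, and each library holds 1 mouse. Total counts were 52629603 to 64648856 in Neat1-/- mice, against 51276067 to 62819932 in WT mice.

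The ER is where secreted and membrane proteins fold. When unfolded proteins build up there, the sensors IRE1 (from Ern1), PERK (from Eif2ak3) and ATF6 start the UPR: IRE1 splices Xbp1 mRNA into the form that codes for an active transcription factor, ATF6 is cut in the Golgi to release its active part, and PERK slows translation while favouring that of Atf4. The targets are chaperones and folding enzymes (Hspa5, Calr, Pdia4), factors that clear misfolded proteins (Dnajb9, Herpud1) and, under lasting stress, the pro-apoptotic factor CHOP (from Ddit3). Counts per gene read the level of the mRNA only. They show neither the splicing of Xbp1 nor the cleavage of ATF6 nor the translation of Atf4.

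ATF6 and XBP1 act through the ER stress response element (ERSE), which reads CCAAT, any 9 bases and then CCACG, or through the shorter ERSE-II, which reads ATTGG, any 1 base and then CCACG. Both strands of the RefSeq promoters (GRCm38.p6, 250 bases before to 50 after a start site) were searched, and 9 of the 10 genes had one. Of 32851 promoters of this length, 0.119% held an ERSE and 0.0365% an ERSE-II. Hspa5 and Calr held an ERSE and Herpud1 an ERSE-II, with no overlap between these matches. The other 6 promoters held neither. Of the 9, 0 held the UPR element TGACGTGG, which 0.676% of all promoters held, and Herpud1 alone held the C/EBP-ATF element TGATGNAA, which 3.97% held. A match of letters is not evidence of binding. The sites of the 3 members are shown with those of Hsp90b1, Pdia6 and Dnajc3, whose levels followed Hspa5 across mice as described further on, so that the shared letters can be compared. Of the other 4 chaperones and foldases that followed Hspa5, Sdf2l1 and Pdia3 held neither element and Hyou1 and Manf were not in the table. The members Pdia4 (r = 0.99) and Xbp1 (r = 0.69) also followed Hspa5 at the adjusted threshold and held neither element. No match was found for Eif2s1 (r = 0.84), which followed Hspa5 as well. Canx (r = 0.41), Creld2 (r = 0.78), Dnajb11 (r = 0.84), Derl3 (r = 0.47) and Syvn1 (r = -0.02) also held an ERSE or ERSE-II. They missed the adjusted threshold for following Hspa5, as did the member Herpud1 (r = 0.26). Each run is 30 bases of GRCm38.p6, read on the strand of the element, with its fixed letters in capitals.
Hspa5, chr2:34772020-34772049, + strand, ERSE: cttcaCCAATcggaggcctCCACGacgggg
Calr, chr8:84847070-84847099, + strand, ERSE: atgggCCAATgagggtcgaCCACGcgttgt
Herpud1, chr8:94386368-94386397, + strand, ERSE-II: cgggcgctgATTGGgCCACGttggacactg
Hsp90b1, chr10:86705528-86705557, + strand, ERSE: actcaCCAATcgtgcctcaCCACGcactct
Pdia6, chr12:17266486-17266515, + strand, ERSE: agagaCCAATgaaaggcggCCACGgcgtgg
Dnajc3, chr14:118937822-118937851, + strand, ERSE: cacaaCCAATcagcgccaaCCACGacccgg

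The elements begin 65 bases upstream of the RefSeq start in Hspa5, 162 in Calr and 52 in Herpud1. Hsp90b1 held a second ERSE, 212 bases upstream on the other strand.

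The labels held for the interrupted gene. Neat1 was at 8.14 ± 1.18 CPM (SD, n = 4) in Neat1-/- mice and 81.5 ± 23.0 CPM (SD, n = 5) in WT mice, a log2 fold change of -3.33 ± 0.189 (SE, edgeR quasi-likelihood test, adjusted p = 1.27e-06). Here and below, levels are TMM-normalized CPM (counts per 1000000) and log2 fold changes are Neat1-/- over WT, from a fit with age over 19753 genes. Values per mouse are listed for Neat1-/- replicates 1, 3, 4 and 5 and WT replicates 1 to 5, and gene positions are those of GENCODE M21 on GRCm38. Adjusted p values are corrected over all genes tested. WT replicates 3 and 4 stood apart from the rest: on the first principal component they scored 47.7 and 42.1, against -17.8 to -4.80 for the other 7. Markers of choroid plexus and ependyma had summed levels of 19.2 to 30.6 CPM in Neat1-/- mice, against 25.4 to 29.3 CPM in the WT mice other than replicate 3, which had 120 CPM. Markers of meningeal fibroblasts had summed levels of 67.0 to 97.6 CPM in Neat1-/- mice, against 28.4 to 225 CPM in WT mice, with the lowest sum in replicate 4 and the highest in replicate 2. Neuronal markers had sums of 5883 to 6271 CPM in Neat1-/- mice, against 5783 to 6028 CPM in WT mice, and 0 of the genes on these 3 lists or 6 others was at 0. Markers of mature oligodendrocytes had sums of 1788 to 2737 CPM in Neat1-/- mice, against 2082 to 3242 CPM in WT mice, and 2 of the 6 passed an unadjusted p of 0.05 by edgeR as lower, where 4.03% of all genes did. So did 1 of 3 markers of oligodendrocyte progenitors, and 1 of 5 microglial markers passed as higher, where 4.27% of all genes did. In bulk tissue, fewer cells of a type and less RNA per cell cannot be told apart.

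None of the 10 genes passed an adjusted p of 0.05 in Neat1-/- mice by edgeR, DESeq2 or limma. Past an unadjusted p of 0.05 by edgeR there were 0 higher members and 1 lower member, Hspa5, where 4.27% of all genes tested were higher, 4.03% lower and 8.30% either. Of the 10 log2 fold changes 5 were positive and 5 negative, and their median was -0.02 with a range from -0.21 (Hspa5) to 0.07 (Herpud1), against a median of -0.00023 over all genes. In 0 of the 10 did the Neat1-/- mice lie wholly above or below the WT mice, which held for 2.67% of all genes. The count of 1 depended on the libraries and the test. Without WT replicate 3 it was 3 (Hspa5, Calr and Pdia4), where 3.71% of all genes were lower. That mouse had the lowest WT level of all 3 genes, so leaving it out raises the WT mean and lowers their fold changes. Without Neat1-/- replicate 4 or 5 the count was 2 (Hspa5 and Ern1). Without Neat1-/- replicate 1 or 3 or WT replicate 1, 2 or 4 it was 0. The share of all genes lower was not counted with a mouse other than WT replicate 3 left out.

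**Figure D1:**
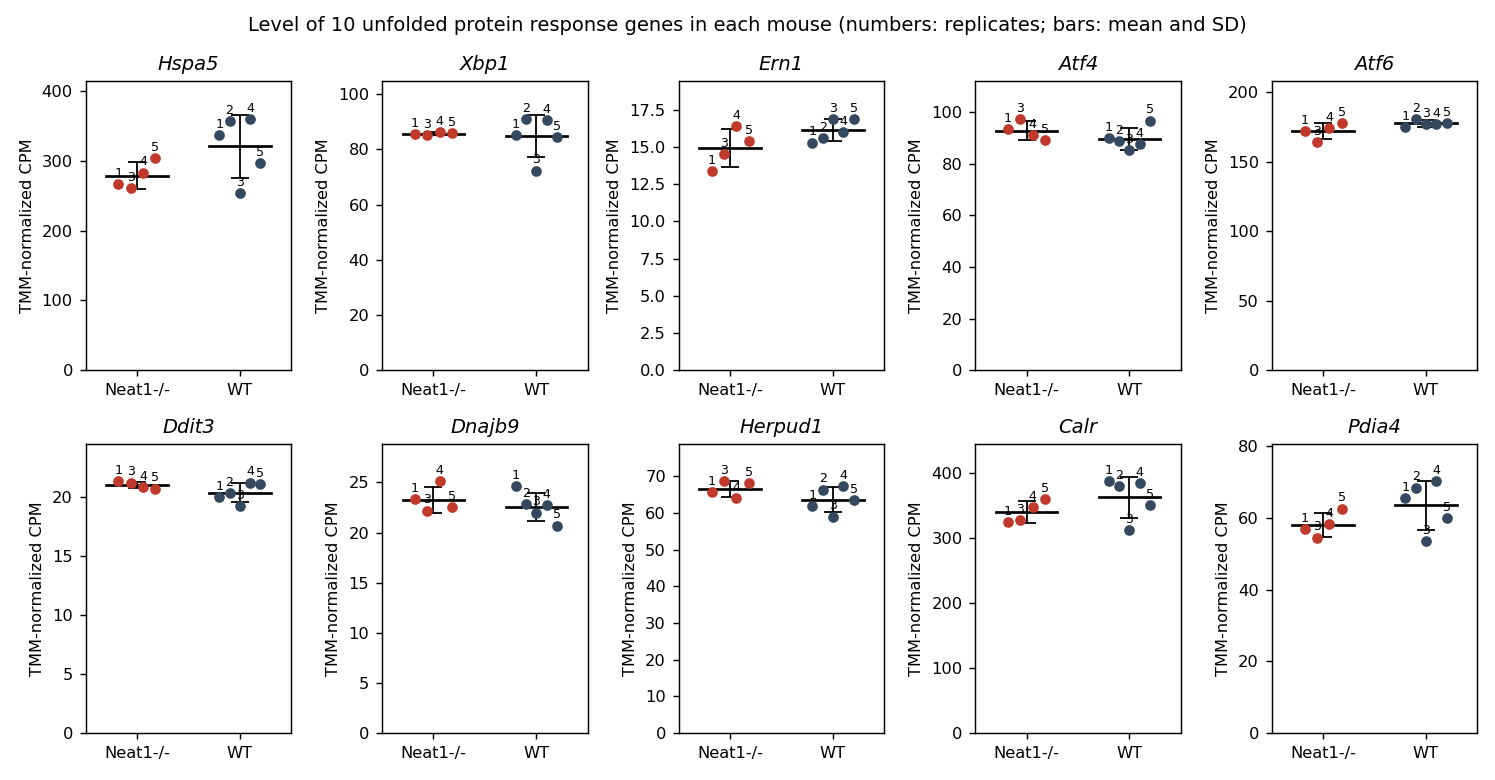
TMM-normalized CPM of the 10 genes in each mouse, Neat1-/- left and WT right; points are mice with their replicate numbers, bars the mean and SD (n = 4 and 5), and every axis starts at 0. Hspa5 and Pdia4 share one order of mice and Calr nearly so, with WT replicate 3 lowest, and in every panel the genotypes overlap.

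The sensors were Atf6 and Ern1. Atf6 (chromosome 1, 170704674 to 170867771, minus strand) codes for a membrane protein of the ER that becomes a transcription factor once cut. Its levels were 172, 164, 174 and 178 CPM in Neat1-/- mice, against 175, 181, 177, 177 and 178 CPM in WT mice. Only Neat1-/- replicates 1, 3 and 4 lay below all WT mice. The log2 fold change was -0.05 ± 0.0318 (SE, edgeR adjusted p = 0.677), with a 95% interval of the fold from 0.92 to 1.01 (p = 0.0635 by exact permutation of the mice, two-sided, where 0.00794 is the smallest p that groups of 4 and 5 allow).

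Ern1 (chromosome 11, 106394650 to 106487852, minus strand) codes for IRE1, a kinase and endoribonuclease. It was the least abundant member per exon length, with 1.91 CPM per kb at the median over mice. Its levels were 13.4, 14.5, 16.4 and 15.4 CPM in Neat1-/- mice, against 15.3, 15.6, 16.9, 16.0 and 16.9 CPM in WT mice. Neat1-/- replicates 1 and 3 were the lowest of the 9, and replicates 4 and 5 lay within the WT range. The log2 fold change was -0.12 ± 0.0628 (SE, edgeR adjusted p = 0.644), and it ranged from -0.16 to -0.07 over 20 alternatives. Ern1 is among the genes that the study listed from these same samples, so its direction is not independent evidence. Of 10 tested genes of the sensors' machinery (PERK, the proteases that cut ATF6, the ligase that joins Xbp1 exons and related factors), none was higher and 1 passed an unadjusted p of 0.05 as lower, where 4.03% of all genes were lower. That gene was Mbtps2, one of the proteases that cut ATF6, at 22.7 ± 0.745 CPM (SD, n = 4) in Neat1-/- mice and 24.3 ± 0.404 CPM (SD, n = 5) in WT mice. Every Neat1-/- mouse had less Mbtps2 than every WT mouse, in a background of 2.67% of genes without overlap (log2 fold change -0.10 ± 0.0427 SE, edgeR adjusted p = 0.594). Without WT replicate 3, 0 of the machinery genes were lower at that threshold, with Mbtps2 at a log2 fold change of -0.09 (edgeR unadjusted p = 0.0570).

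The transcription factors Xbp1, Atf4 and Ddit3 had means that differed little between the genotypes, and none passed the test. Xbp1 (chromosome 11, 5520659 to 5525893, plus strand) had 85.5, 85.1, 86.4 and 86.0 CPM in Neat1-/- mice, against 85.2, 91.1, 72.3, 90.7 and 84.4 CPM in WT mice. The Neat1-/- mice were within a narrow band, and WT replicate 3 was the lowest of all. The SD was 0.547 CPM in Neat1-/- mice (n = 4) and 7.59 CPM in WT mice (n = 5). The log2 fold change was 0.02 ± 0.0568 (SE, edgeR adjusted p = 0.952), with a 95% interval of the fold from 0.93 to 1.10, and it was -0.04 without WT replicate 3.

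Atf4 (chromosome 15, 80255184 to 80257541, plus strand) had 93.5, 97.4, 91.1 and 89.1 CPM in Neat1-/- mice, against 90.0, 88.8, 85.4, 87.7 and 96.7 CPM in WT mice. The highest mice of the 2 genotypes were nearly equal, Neat1-/- replicate 3 and WT replicate 5. Its log2 fold change was 0.05 ± 0.0403 (SE, edgeR adjusted p = 0.754). Ddit3 (chromosome 10, 127290774 to 127296288, plus strand) had 21.3, 21.2, 20.8 and 20.7 CPM in Neat1-/- mice, against 20.0, 20.3, 19.2, 21.2 and 21.1 CPM in WT mice. The Neat1-/- mice lay in or just above the upper part of the WT range. Its log2 fold change was 0.05 ± 0.0454 (SE, edgeR adjusted p = 0.794), with a 95% interval of the fold from 0.96 to 1.10. Ddit3 overlaps Mars by 68 bp on the other strand, and the sources used here do not say whether counting used the strand. A second annotated protein-coding gene of the name Ddit3 overlaps it by 2925 bp on the same strand and has no row in the counts.

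The chaperones and folding enzymes of the ER lumen, Hspa5, Calr and Pdia4, had lower means in Neat1-/- mice, within the spread of the WT mice. Hspa5 (chromosome 2, 34771970 to 34777547, plus strand) codes for BiP, the Hsp70 of the ER, which also holds the sensors inactive. Its levels were 266, 261, 283 and 304 CPM in Neat1-/- mice, against 337, 357, 254, 360 and 296 CPM in WT mice. WT replicates 1, 2 and 4 lay above all Neat1-/- mice, and WT replicate 3 lay below them all. The means were 278 ± 19.3 CPM in Neat1-/- mice (SD, n = 4) and 321 ± 45.0 CPM in WT mice (SD, n = 5). The log2 fold change was -0.21 ± 0.0865 (SE, edgeR unadjusted p = 0.0342 and adjusted p = 0.583). The exact permutation test of the CPM gave p = 0.135 (two-sided). Over 20 alternatives the direction held in all 20, with log2 fold changes of -0.28 to -0.12 and adjusted p values of 0.183 to 0.908, and the unadjusted p was under 0.05 in 13.

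Calr (chromosome 8, 84841850 to 84846934, minus strand) codes for calreticulin, a calcium-binding chaperone of glycoproteins. It had 325, 327, 347 and 360 CPM in Neat1-/- mice, against 387, 380, 312, 384 and 350 CPM in WT mice. WT replicates 1, 2 and 4 were again above every Neat1-/- mouse, and WT replicate 3 below. The log2 fold change was -0.09 ± 0.0578 (SE, edgeR adjusted p = 0.661), and -0.15 without WT replicate 3 (adjusted p = 0.418). Over 20 alternatives it ran from -0.15 to -0.04, and the unadjusted p was under 0.05 in 3. Pdia4 (chromosome 6, 47796141 to 47813430, minus strand) codes for a protein disulfide isomerase. It had 56.9, 54.5, 58.3 and 62.6 CPM in Neat1-/- mice, against 65.5, 68.5, 53.5, 70.2 and 60.0 CPM in WT mice. The pattern across mice was that of Hspa5. The log2 fold change was -0.13 ± 0.0699 (SE, edgeR adjusted p = 0.639), and -0.19 without WT replicate 3 (adjusted p = 0.437). Over 20 alternatives it ran from -0.19 to -0.07, and the unadjusted p was under 0.05 in 5.

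**Figure D2:**
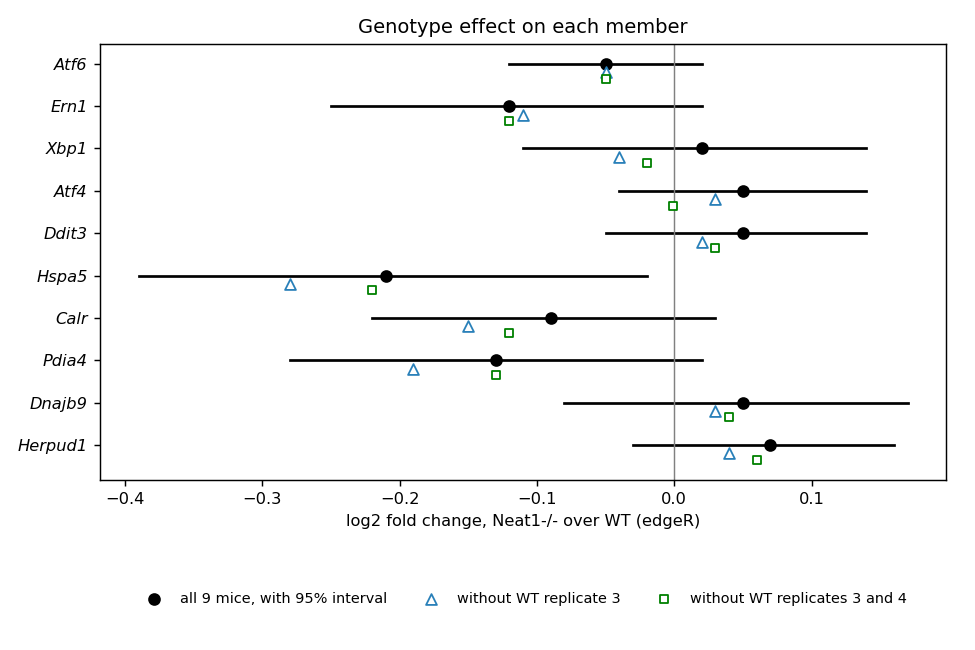
log2 fold change of each member, Neat1-/- over WT, from edgeR; black points and lines are all 9 mice with the 95% interval, triangles leave out WT replicate 3 and squares WT replicates 3 and 4. Only the interval of Hspa5 excludes 0 (-0.39 to -0.02). Its estimate is -0.28 without WT replicate 3, at the low end of 20 alternatives (-0.28 to -0.12).

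The factors of ER-associated degradation, Dnajb9 and Herpud1, had slightly higher means in Neat1-/- mice, and neither passed the test. Dnajb9 (chromosome 12, 44205559 to 44210326, minus strand), a cochaperone of BiP and a target of XBP1, had 23.3, 22.2, 25.1 and 22.5 CPM in Neat1-/- mice, against 24.6, 22.8, 22.0, 22.7 and 20.7 CPM in WT mice. The genotypes overlapped over most of their ranges. Its log2 fold change was 0.05 ± 0.0571 (SE, edgeR adjusted p = 0.828), and -0.01 without Neat1-/- replicate 4. Herpud1 (chromosome 8, 94386438 to 94395377, plus strand), which organises the ubiquitin ligase complex in the ER membrane, had 65.7, 68.6, 64.0 and 68.2 CPM in Neat1-/- mice, against 61.9, 66.4, 59.0, 67.4 and 63.5 CPM in WT mice. WT replicate 3 was again the lowest. Its log2 fold change was 0.07 ± 0.0432 (SE, edgeR adjusted p = 0.680), with a 95% interval of the fold from 0.98 to 1.12. Herpud1 overlaps the antisense gene Gm15890 by 535 bp.

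Per length of annotated exon, Calr was the most abundant member, with a median over the 9 mice of 121 CPM per kb, followed by Hspa5 at 70.0, Atf4 at 38.2 and Herpud1 at 28.2 CPM per kb. Xbp1 at 26.3 and Pdia4 at 25.0 CPM per kb were not separated, with Xbp1 the higher in 5 of 9 mice. Atf6 at 19.2, Ddit3 at 12.2, Dnajb9 at 8.89 and Ern1 at 1.91 CPM per kb followed. Every neighbouring pair in this order other than Xbp1 and Pdia4 kept its order in all 9 mice.

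Hspa5, Calr and Pdia4 varied together from mouse to mouse. Across the 9 mice, Pdia4 followed Hspa5 with Pearson's r = 0.99 on the log2 CPM scale (exact permutation p = 2.76e-06, the smallest that 362880 pairings allow, and 2.48e-05 adjusted over 9 relations). The ranks were identical (Spearman's rho = 1.00, exact permutation p = 5.51e-06, adjusted 4.96e-05). Calr followed Hspa5 with r = 0.97 (exact permutation p = 2.04e-04, adjusted 9.18e-04) and rho = 0.93 (exact permutation p = 7.50e-04, adjusted 0.00337). Without WT replicates 2 and 4, the farthest from the median of Hspa5, r was 0.98 for Pdia4 and 0.99 for Calr. Among the 7 libraries other than WT replicates 3 and 4, it was 0.99 (exact permutation p = 1.98e-04, adjusted 0.00179) and 0.97 (exact permutation p = 0.00258, adjusted 0.0116). All levels share the scaling of their library. The relations with Hspa5, here and elsewhere, pool both genotypes with no genotype term. They therefore mix the genotype contrast with variation among mice of the same genotype.

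The other members did not share this pattern in a stable way. Xbp1 had r = 0.69 with Hspa5 (exact permutation p = 0.00835, adjusted 0.0250) and rho = 0.72 (exact permutation p = 0.0369, adjusted 0.111), and its r was 0.49 without WT replicates 2 and 4. Among the 7 libraries other than WT replicates 3 and 4 its r was 0.63 (exact permutation p = 0.113, adjusted 0.170). Ddit3 had r = 0.05 over 9 mice (exact permutation p = 0.898, adjusted 0.898) and rho = 0.02 (exact permutation p = 0.982). Among the 7 libraries other than WT replicates 3 and 4 its r was -0.90 (exact permutation p = 0.00794, adjusted 0.0238), and -0.73 once the farthest pair of these was left out. Ern1, Atf4, Atf6, Dnajb9 and Herpud1 had r from -0.33 (Atf4) to 0.58 (Atf6) over 9 mice, with adjusted p of 0.201 or more by exact permutation. Among the 7 libraries, Atf6 had r = 0.76 (exact permutation p = 0.0423, adjusted 0.0951) and rho = 0.86 (exact permutation p = 0.0238, adjusted 0.0429). Atf4 had r = -0.71 there (exact permutation p = 0.0829, adjusted 0.149) and rho = -0.86 (exact permutation p = 0.0238, adjusted 0.0429).

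**Figure D3:**
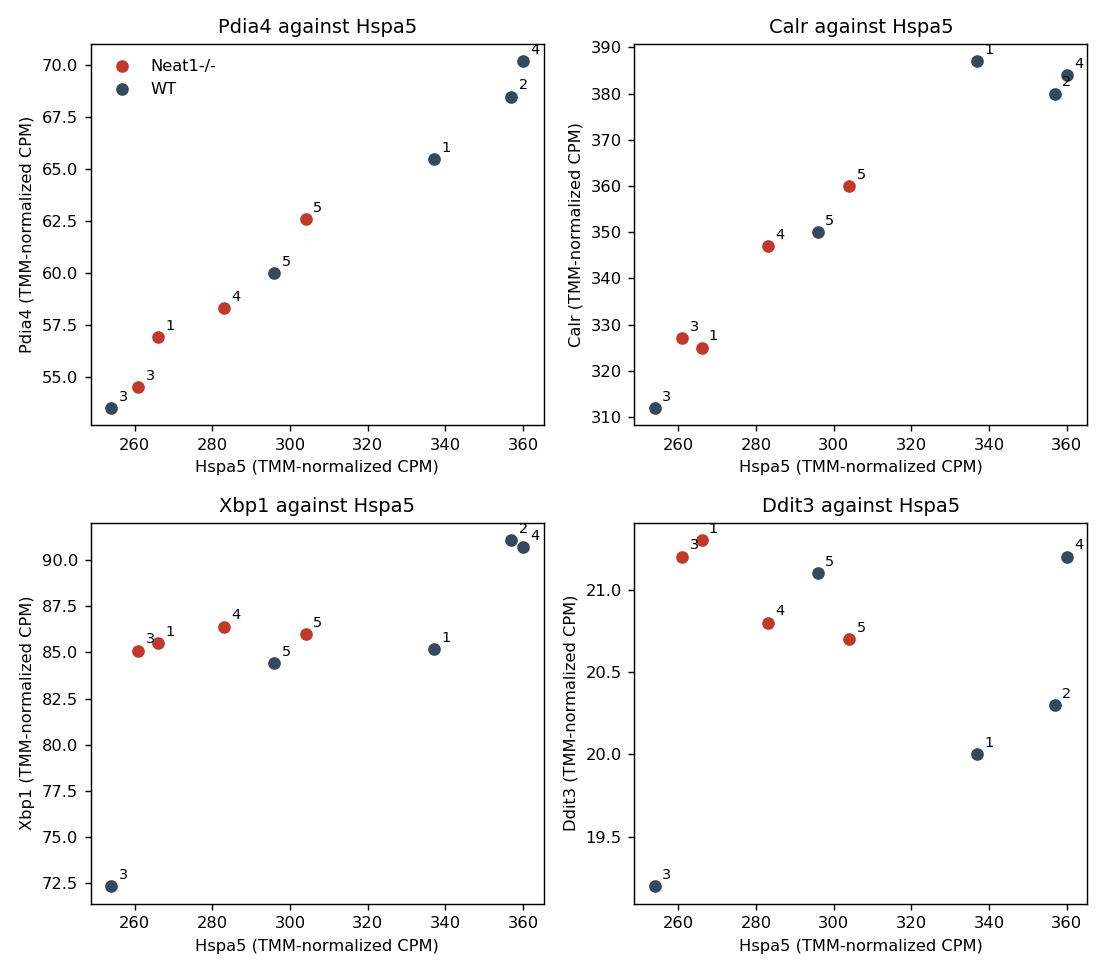
Level of Pdia4, Calr, Xbp1 and Ddit3 against that of Hspa5, in TMM-normalized CPM; points are mice, red for Neat1-/- and blue-grey for WT, with replicate numbers, and the axes do not start at 0. Pdia4 and Calr rise with Hspa5 over both genotypes (r = 0.99 and 0.97), while Ddit3 does not (r = 0.05).

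The order of mice in these chaperones was compared with the libraries' other traits. WT replicate 3, with the lowest Hspa5 (254 CPM), had the highest choroid plexus and ependymal sum (120 CPM). WT replicate 4, with the highest Hspa5 (360 CPM), had the lowest meningeal sum (28.4 CPM), while WT replicates 1 and 2, with 337 and 357 CPM of Hspa5, had the highest meningeal sums (179 and 225 CPM). The 2 libraries that stood apart on the first principal component thus had the lowest and the highest Hspa5. The part of these traits in the genotype difference was not tested.

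Other ER chaperones and foldases showed the same order of mice in part. All 23 on the list were tested. In Neat1-/- mice 4 of them passed an unadjusted p of 0.05 as lower and 0 as higher, beside 4.03% of all genes lower. The median log2 fold change was -0.05, with 15 negative and 8 positive. At an adjusted p of 0.05, edgeR passed 0 of the 23, limma on the counts 0, and DESeq2 and limma on the deposited values 1 each (Fkbp2). Fkbp2, a prolyl isomerase of the ER, had 24.1 ± 1.5 CPM in Neat1-/- mice (SD, n = 4) and 28.0 ± 1.53 CPM in WT mice (SD, n = 5), a log2 fold change of -0.22 ± 0.0501 (SE, edgeR adjusted p = 0.303), and it lies on chromosome 19, 1.13 Mb from Neat1. Sdf2l1, a cofactor of BiP, had a log2 fold change of -0.24 ± 0.105 (SE, edgeR adjusted p = 0.594). Pdia3, the disulfide isomerase that works with calreticulin, had 114 ± 4.77 CPM in Neat1-/- mice and 123 ± 10.9 CPM in WT mice. Uggt1, the glucosyltransferase that senses misfolded glycoproteins, had 121 ± 1.06 CPM in Neat1-/- mice and 128 ± 4.60 CPM in WT mice (SD, n = 4 and 5 for both genes). Without WT replicate 3, 10 of the 23 were lower and 0 higher at that threshold, where 3.71% of all genes were lower and 3.67% higher. Without WT replicates 3 and 4, 6 were lower and 0 higher, where 3.48% of all genes were lower and 3.81% higher.

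After the members' relations had been seen, the 131 tested genes of the pathway lists were related to Hspa5 in the same way. Of the 23 chaperones and foldases, 7 followed it upward at an adjusted p under 0.05 by exact permutation of Pearson's r, with a median r of 0.61 over the list. They were Hyou1, Hsp90b1, Pdia6, Manf, Sdf2l1, Pdia3 and Dnajc3, chaperones, folding enzymes and cofactors of the ER lumen. Hyou1, the ER member of the Hsp110 family, had r = 0.96 (exact permutation p = 1.93e-04, adjusted 0.0102), and Hsp90b1, the Hsp90 of the ER, had r = 0.95 (exact permutation p = 2.34e-04, adjusted 0.0102). By Spearman's rho, only Hyou1, Hsp90b1, Pdia6 and Manf of the 7 kept an adjusted p under 0.05. Without WT replicates 2 and 4, r was 0.95 for Hyou1, 0.90 for Hsp90b1, 0.88 for Pdia6 and 0.81 for Manf. It was 0.91 for Pdia3, 0.88 for Sdf2l1 and 0.69 for Dnajc3. Dnajb11 narrowly missed the threshold (r = 0.84, exact permutation adjusted p = 0.0559), and its r was 0.87 without those mice. At r of at least 0.9 were 4 of the 23, or 17.4%, against 0.122% of all tested genes other than Hspa5. Outside this list, Eif2s1, the eIF2 subunit that PERK phosphorylates, had r = 0.84 (exact permutation p = 6.64e-04, adjusted 0.0218; rho = 0.83, adjusted 0.108). Edem1, which takes misfolded glycoproteins to degradation, had r = -0.91 (exact permutation p = 0.00131, adjusted 0.0260; rho = -0.87, adjusted 0.0844). The 32 tested targets of ATF4 had 0 at an adjusted p under 0.05 and a median r of -0.03.

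**Figure D4:**
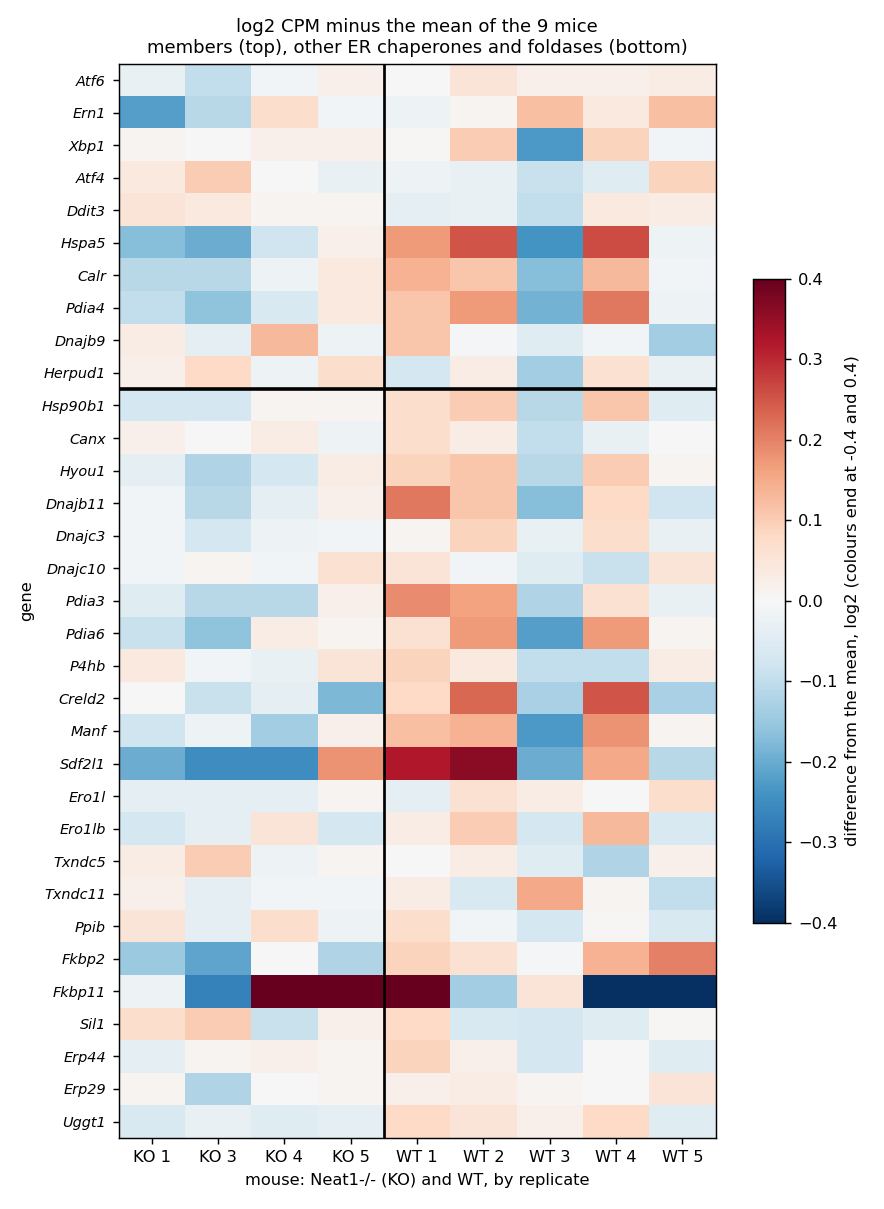
log2 CPM of each gene minus its mean over the 9 mice, for the 10 members (top) and 23 other ER chaperones and foldases (bottom); columns are mice, 4 Neat1-/- (KO) left and 5 WT right, and colours end at -0.4 and 0.4. Hspa5, Calr, Pdia4, Pdia6, Hyou1 and Manf are high in WT replicates 1, 2 and 4 and low in WT replicate 3, while Atf4 and Ddit3 lack that pattern, and Fkbp11 exceeds the colour range in several mice.

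Few other factors of ER-associated degradation passed the unadjusted threshold, and those that did were higher. Of 20 genes, 2 passed an unadjusted p of 0.05 as higher in Neat1-/- mice and 0 as lower, where 4.27% of all genes were higher. The median log2 fold change of the list was 0.01. Herpud2, the paralog of Herpud1, had 35.5 ± 1.57 CPM in Neat1-/- mice (SD, n = 4) and 33.3 ± 0.365 CPM in WT mice (SD, n = 5), a log2 fold change of 0.09 ± 0.0384 (SE, edgeR adjusted p = 0.581), with no overlap between the genotypes. Ufd1, which works with the ATPase VCP to draw proteins out of the membrane, also had a log2 fold change of 0.09 ± 0.0348 (SE, edgeR adjusted p = 0.580). Without WT replicate 3 neither passed the unadjusted threshold, at log2 fold changes of 0.09 for Herpud2 (edgeR unadjusted p = 0.0502) and 0.07 for Ufd1 (edgeR unadjusted p = 0.0526). Of 23 genes of translocation into the ER and export from it, 1 passed this threshold as lower and 0 as higher. Of all genes, 4.03% were lower at this threshold. The lower gene was Sec61a1, the pore of the translocon, with a log2 fold change of -0.11 ± 0.0395 (SE, edgeR adjusted p = 0.562). With limma on the deposited values, Sec61a1 passed an adjusted p of 0.05 (log2 fold change -0.15, adjusted p = 0.00150). The p values of that fit do not allow for the covariates already removed from those values. Without WT replicates 3 and 4, Sec61a1 had a log2 fold change of -0.16 (edgeR adjusted p = 0.116).

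The RefSeq promoter held an ERSE or ERSE-II in 11 tested pathway genes, members included. Their log2 fold change was negative in 8 and positive in 3, with a median of -0.07. Of all 19753 genes tested, 9900 were negative and 9853 positive. The 11 include Hspa5, Calr and chaperones described above, so their count repeats those results in part. Their values ranged from -0.21 in Hspa5 to 0.13 in Syvn1, the ubiquitin ligase of ER-associated degradation, which lies 0.201 Mb from Neat1. Of the 17 chaperones and foldases with a promoter in the table, 6 held one of the elements, and of the 27 such targets of ATF4 0 did. The C/EBP-ATF element was found in 10 of those 27 targets.

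Few targets of ATF4 passed the test in Neat1-/- mice. Of 32 tested, 3 passed an unadjusted p of 0.05 as higher and 1 as lower, where 4.27% of all genes were higher and 4.03% lower, and the median log2 fold change was 0.02. Slc3a2, the heavy chain of amino acid transporters, was the only gene of the 131 in the pathway lists to pass an adjusted p of 0.05 from edgeR, where 0.0709% of all genes did. Slc3a2 had 102, 102, 99.4 and 101 CPM in Neat1-/- mice, against 80.6, 80.7, 74.6, 70.4 and 81.9 CPM in WT mice. Each Neat1-/- mouse was above each WT mouse (log2 fold change 0.38 ± 0.0422 SE, edgeR adjusted p = 0.00190), and the gene lies on chromosome 19, 2.86 Mb from Neat1. Slc3a2 and Fkbp2 are also among the genes that the study listed from these samples, so their directions are not independent evidence. Nupr1, a stress-induced chromatin protein, had 6.93 ± 0.781 CPM in Neat1-/- mice (SD, n = 4) and 5.30 ± 0.786 CPM in WT mice (SD, n = 5; edgeR adjusted p = 0.453). Cebpg, which pairs with ATF4 on DNA, had a log2 fold change of 0.09 ± 0.0366 (SE, edgeR adjusted p = 0.581). Ddit4, an inhibitor of mTORC1 signalling, had 15.8 ± 3.22 CPM in Neat1-/- mice and 19.5 ± 2.32 CPM in WT mice (edgeR adjusted p = 0.474).

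The remaining lists held few genes past the threshold. Of 9 regulators of eIF2 and its phosphorylation, edgeR passed 0 at an unadjusted p of 0.05 in either direction, as for 9 genes of apoptosis under ER stress. DESeq2 and limma passed 0 genes of either list at an adjusted p of 0.05. Ppp1r15b, a subunit of the eIF2 phosphatase, had a log2 fold change of 0.03 ± 0.0456 (SE) and Eif2b5, a subunit of the exchange factor of eIF2, one of -0.02 ± 0.0353 (SE). Bcl2, an inhibitor of apoptosis, had one of -0.08 ± 0.0617 (SE) and Bax, a promoter of it, one of 0.02 ± 0.0708 (SE). Of 5 mRNAs that IRE1 can cleave, 1 passed the unadjusted threshold, as higher, where 4.27% of all genes did. Col6a1, a chain of collagen VI, had 85.0 ± 3.39 CPM in Neat1-/- mice (SD, n = 4) and 72.1 ± 7.69 CPM in WT mice (SD, n = 5), a log2 fold change of 0.24 ± 0.0658 (SE, edgeR adjusted p = 0.430). Col6a1 passed an adjusted p of 0.05 without WT replicate 5 and with all genes that had any count.

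**Figure D5:**
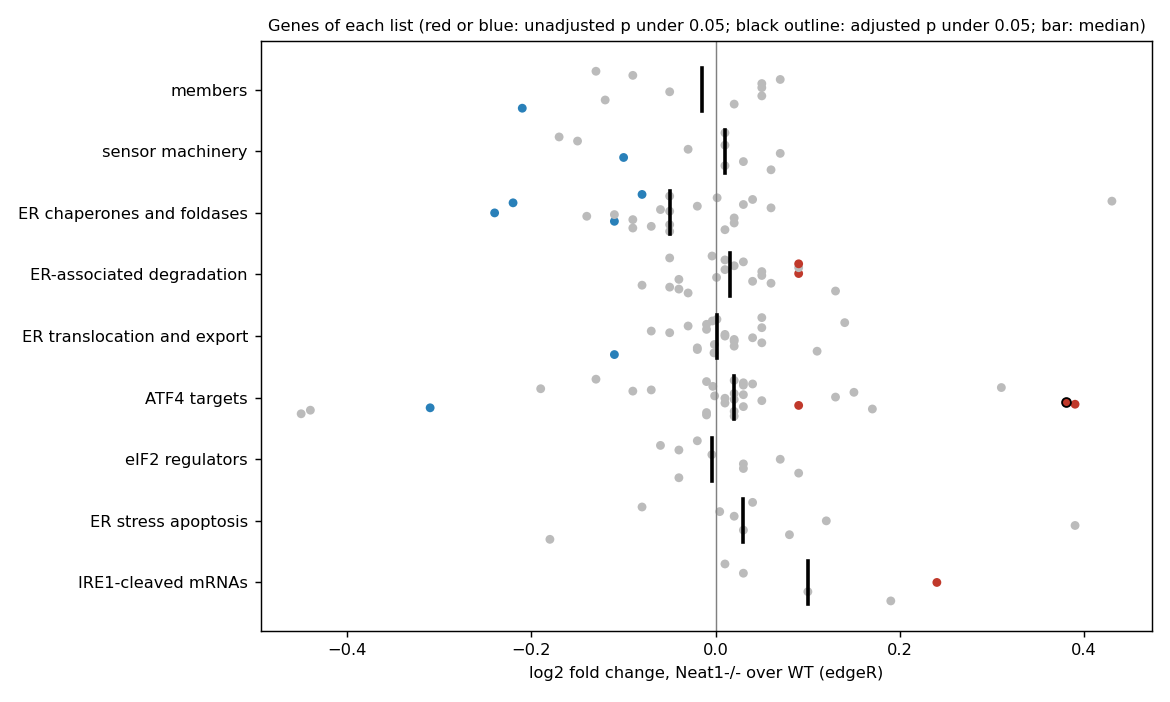
log2 fold change (Neat1-/- over WT, edgeR) of each tested gene in the 10 members and the 8 pathway lists; red and blue points passed an unadjusted p of 0.05, a black outline marks an adjusted p under 0.05 and bars are medians. The chaperone list has a median of -0.05, and the outlined point is Slc3a2 at 0.38.

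Age from 2 to 4 months was in the same fit. Past an unadjusted p of 0.05 by edgeR, 0 of the 10 members changed with age, where 5.98% of all genes did, and at an adjusted p under 0.05 0 members and 0 of all genes did. Hspa5 had a slope of -0.04 per month on the log2 scale (edgeR adjusted p = 0.889). Without WT replicates 3 and 4, Hspa5, Calr and Pdia4 had slopes of -0.08, -0.05 and -0.07 with unadjusted p values of 0.0104, 0.0497 and 0.0268 and adjusted p values of 0.703, 0.787 and 0.748 from edgeR. The share of all genes past an unadjusted p of 0.05 in that fit was not counted, and these genes vary together.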

How the data were processed

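The authors deposited raw read counts per Ensembl gene and, for 13456 genes, TMM-normalized log2 expression values from which covariates had been removed. The submitters' processing notes name STAR 2.5.0, HTSeq 0.8.0 and mm10. The supplementary methods name other aligner and HTSeq versions, and limma with age as a covariate. Counts were used as deposited (0 rows name no gene), and the deposited log2 values only in an alternative. That alternative had a term for genotype only, so its p values do not allow for the covariates already removed. Names, positions and exon lengths came from GENCODE M21 (GRCm38), with 97.3% of IDs named. Genes passing filterByExpr (19753) were tested in edgeR 4.0.16 (R 4.3.3) by glmQLFTest, after TMM, with terms for age and genotype, and p-values were adjusted by Benjamini-Hochberg (0.05). The common coefficient of biological variation came to 0.0922. Alternatives used DESeq2 1.42.0, limma 3.58.1, and other scaling, filters, age terms and libraries. Limma on the counts was run with voomWithQualityWeights and an age term, as the supplementary methods describe, which also weights each library by its quality. Log2 CPM had a prior count of 2. Permutations, motif searches and plots were run in Python 3.11.15 with SciPy 1.17.1. In simulated counts for this comparison (19753 genes), calls were made for 38 of 67 genes set to 1.5-fold, for 48 of 67 at 2-fold, for 59 of 66 at 4-fold and for 10 of 19553 left level. Genes were drawn independently and without an age effect. No change below 1.5-fold was simulated, and the largest among the members was 1.15-fold (Hspa5), so detection at the members' sizes was not tested.

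The members and lists were chosen with earlier results of these data known. Genes named are Neat1, the members and, of each list, those past an adjusted p of 0.05 plus up to 4 past an unadjusted p of 0.05, or else the 2 most abundant; others named were chosen after their values were seen.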

Additional observations from a re-analysis of the deposited data

How the results depend on the processing

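No member passed an adjusted p of 0.05, and none was higher at an unadjusted p of 0.05, under any of the 20 alternatives. The number lower, 1 as reported, was 2 with all genes that had any count, 2 with limma on the deposited values, 3 with limma on the counts, 3 without WT replicates 3 and 4, 0 with age as a factor, 0 with DESeq2, and 0 to 3 with 1 mouse left out. The replicate numbers did not pair the mice (correlations of same-numbered mice of -0.08 to 0.14 over 4 pairs). With the replicate block, 2 members were lower, 1 member had an age slope past the unadjusted threshold against 0 as reported, and the age slope of Ern1 was -0.01. Without WT replicates 3 and 4, 3 members had such an age slope, namely Hspa5, Calr and Pdia4, whose levels varied together. The share of all genes with such a slope in these fits was not counted. By edgeR, 6 of the 131 pathway genes passed an unadjusted p of 0.05 as higher and 7 as lower. In that fit, 4.27% of all genes tested passed as higher and 4.03% as lower. The count passing as higher was 10 with limma on the deposited values and 3 to 9 with 1 mouse left out. The count passing as lower was 16 and 4 to 13 in those fits. For limma on the deposited values the share of all genes was not counted. With 1 mouse left out that share was counted only without WT replicate 3, at 3.67% higher and 3.71% lower. At the adjusted threshold, 1 pathway gene passed, against 2 with all genes that had any count and 2 with DESeq2. That number was 3 with limma on the deposited values and 1 to 2 with 1 mouse left out. Some estimates near 0 changed sign, for which the cause was not tested. Without WT replicates 3 and 4 the log2 fold change was -0.02 for Xbp1, -0.00058 for Atf4, -0.04 for Ppp1r15b and -0.06 for Bax, and the difference in Xbp1 was -1.16 CPM. With limma on the counts it was -0.01 for Xbp1 and -0.0021 for Bax. On the deposited values it was -0.0037 for Xbp1, -0.0012 for Atf4, -0.03 for Ppp1r15b and -0.03 for Bax. With 1 mouse left out it ran from -0.04 to 0.05 for Xbp1, -0.01 to 0.07 for Dnajb9, -0.0050 to 0.05 for Ppp1r15b and -0.03 to 0.06 for Bax, and the difference in Xbp1 from -2.10 to 2.59 CPM. Age slopes (log2 per month) with library size only were 0.0046 for Xbp1, 0.0020 for Atf6 and 0.0015 for Herpud1. With a filter of 1 CPM they were 0.0036, 0.0011 and 0.00046 for the same genes. With 1 mouse left out they ran from -0.03 to 0.02 for Xbp1, -0.0040 to 0.04 for Atf4, -0.01 to 0.01 for Atf6, -0.05 to 0.01 for Dnajb9 and -0.03 to 0.01 for Herpud1.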
